A study of Mus musculus with 20 samples.

Results

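A list of 54 genes that copy DNA was followed in BV-2 microglia, an immortalised line raised from cultures of mouse brain. The genes were picked by symbol for their known part in DNA replication and S phase and sorted into 8 roles. The rule uses no measured value, but the list was drawn up with earlier results of these data known. Each of the 54 was found as exactly 1 gene among the 55487 genes of the count table, and all 54 passed the filter on low counts that left 12799 genes to test. RNA was sequenced from 20 cultures of wild-type BV-2 cells in 4 groups of 5. Young cells are the control cultures of the line, and aged cells are the same line after long-term cultivation. Each age was left untreated or was given bacterial lipopolysaccharide (LPS) at 100 ng/ml for 6 hours. All groups grew in the same serum-containing medium. Every culture stems from 1 dividing cell line rather than from microglia of young or old animals. The paper states that aged cells were cultivated for more than 100 days and then frozen as aliquots, while controls were low-passage cells. Aged and young cultures thus differ by time in culture, passage and frozen stock, which cannot be told apart here. Cultures are numbered by batch from 1 to 5, with the 4 groups represented once in each batch.

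Replication starts at origins, which the origin recognition complex marks on DNA. There, during G1, Cdc6 and Cdt1 load the ring of Mcm2 to Mcm7, the core of the replicative helicase, and this step is called licensing. In S phase kinases and firing factors switch the helicase on, primase and polymerases copy both strands behind it, the sliding clamp PCNA keeps the polymerases on their template, and histone chaperones rebuild chromatin on the new DNA. Many of these genes are known targets of E2F transcription factors, which switch them on as cells pass from G1 into S phase.

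The libraries held 11371508 to 16829292 counts, of which the 54 genes took between 0.331% and 0.770% of them. Levels are given as CPM, the count scaled to a common library size by the TMM method, and differences as log2 fold changes with their standard error (SE). A gene is called changed when the Benjamini-Hochberg adjusted p of edgeR's quasi-likelihood test over all 12799 genes is below 0.05. Of 13 microglia and macrophage markers, 10 were above the detection floor of 3 counts in every library, with Cd68, a lysosomal protein, the most abundant at 974 ± 186 CPM (SD, n = 5) in young untreated cultures. Csf1r, the receptor that these cells need for survival, stood at 854 ± 98.6 CPM in the same cultures. The microglial markers Cx3cr1 and P2ry12 had means of 1.05 and 1.18 CPM there, and Sall1 was at 0 in every library. Summed markers of neurons, astrocytes, oligodendrocytes and fibroblasts or mural cells stayed at or below 1.78 CPM in each library. Among endothelial markers Cldn5 and Tek were at 0 throughout, while Flt1 and Vwf were above the floor in all 20 libraries, with means of 320.3 and 13.8 CPM in young untreated cultures. The shallowest of the 20 libraries was culture 1 of the young LPS group, which was singled out after the data were seen. Its counts differed from those of culture 4 of its group by a chi-square of 26.8 per degree of freedom, the highest value for any pair of cultures within a group. In each of the other groups the most unlike pair also held culture 1, with values from 20.0 to 25.2. For the 54 genes as a whole, counts between the ages under LPS and of the interaction are given with and without young LPS culture 1. Each of the 54 genes whose call changes without it is named. Counts by role and for the other lists include that library, except where stated.

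LPS lowered the replication genes almost as a block in young cells, and by less in aged cells. In young cultures 50 of the 54 genes fell and 2 rose, against 33.5% of all tested genes called lower and 31.2% called higher. Their median log2 fold change was -0.85, while that of all tested genes was -0.01. In aged cultures 46 of the 54 fell and 2 rose, where 26.9% of all tested genes were called lower and 27.5% higher, and the median of the 54 was -0.44. The 5 LPS cultures lay wholly below the 5 untreated ones for 50 of the 54 genes in young cells and for 42 of the 54 in aged cells. The corresponding shares of all tested genes were 25.2% and 19.1%. In bulk RNA, fewer cells in S phase and less of each transcript per cell cannot be told apart.

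Without LPS, age made little difference to these genes. Between aged and young untreated cultures 2 of the 54 genes were higher (Orc2 and Orc4) and 1 was lower (Tk1), against 3.71% and 7.81% of all tested genes, and the median of the 54 was 0.00. With batch as a block the same counts of the 54 were called, while all genes called higher went from 475 to 768. Under LPS, 44 of the 54 were higher in aged than in young cultures and none was lower, where 14% of all tested genes were called higher and 15% lower. For the count of 0, none of the 54 was lower at an unadjusted p below 0.05, and DESeq2 also called none. The median of the 54 was 0.41, and the groups did not overlap, with aged above young, for 28 of the 54 genes against 6.69% of all tested genes. Without young LPS culture 1 the count called higher was 48 and the median 0.44. In edgeR's test Gins2 (0.36, adjusted p = 0.0118), Mcm10 (0.27, adjusted p = 0.0114), Prim2 (0.26, adjusted p = 0.00284), Pold3 (0.18, adjusted p = 0.0450) and Timeless (0.33, adjusted p = 0.0102) were then called higher, and Orc5 lost its call (adjusted p = 0.0524). Leaving out 1 batch at a time gave 35 to 50 genes called higher, and 34 of the 44 kept their call each time. The 10 that did not were Orc2, Orc5, Dbf4, Mcm8, Pold2, Pcna, Rfc1, Rfc3, Rfc4 and Tyms.

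**Figure D1:**
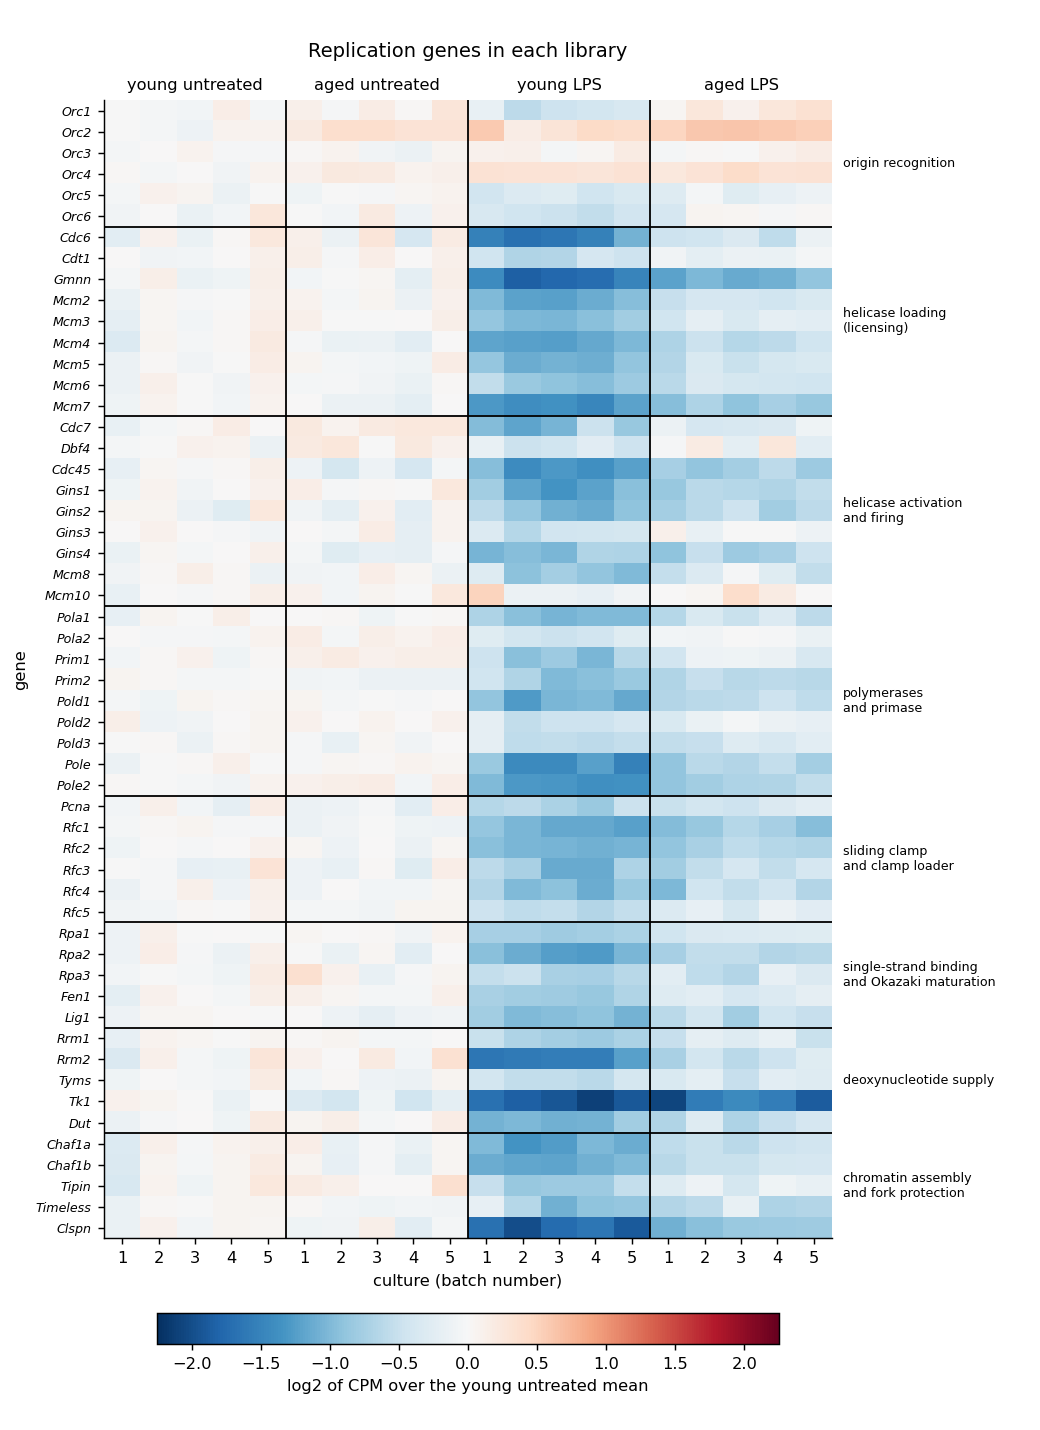
Each row is 1 of the 54 replication genes, sorted by role, and each column is 1 of the 20 libraries; colour shows log2 of the CPM over the mean of the 5 young untreated cultures. The young LPS columns are the bluest, the aged LPS columns are paler blue, and both untreated blocks are close to white; Orc2 and Orc4 are the rows that turn pale red with LPS when libraries are scaled by TMM.

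The members fell together, so their promoters were searched for sequences known to bind E2F factors. RefSeq promoters (250 bases before to 50 after the RefSeq start, GRCm38.p6) were matched for 45 of the 54 genes. The other 9 were Gmnn, Mcm4, Gins1, Gins2, Gins4, Prim2, Pole, Rfc2 and Tipin. The RefSeq start can differ from the start of the gene positions given here. For Cdc6, Mcm7 and Lig1 the whole window lay inside the gene by those positions. The octamers searched on both strands were TTTCCCGC, TTTGGCGC, TTTCGCGC and TTTGCCGC, which can overlap one another. At least 1 of them stood in 17 of the 45 promoters (37.8%), against 2.605% of the 27025 genes of the table. Among the licensing genes 6 of 7 matched promoters held one, among the polymerases and primase 4 of 7, and among the deoxynucleotide supply genes 0 of 5. The shorter sequence CCAAT was in 26 of the 45 (57.8%) and in 41.1% of all genes. In 19 matched genes of G2 and mitosis these counts were 1 for the octamers and 16 for CCAAT. Genes with and without an octamer overlapped in their response. The median log2 fold change under LPS in young cells was -0.93 for the 17 genes with one (from -1.78 to 0.07) and -0.73 for the 28 without (from -1.89 to 0.38). A match describes the letters in this window and was not tested as a binding site.

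Promoters of 4 genes (GRCm38.p6) are given as examples, each printed 5′ to 3′ along its gene with the octamers in capitals. Cdc6 (chr11:98907901-98908200, plus strand) and Clspn (chr4:126556730-126557029, plus strand) were the genes whose LPS response differed most between the ages. Mcm6 (chr1:128359656-128359955, minus strand) held 3 matches, of which 2 overlap in the first run of capitals. Orc2 (chr1:58505060-58505359, minus strand) rose where the list fell, and has no octamer in this window or in the one at its other listed start. The 28 matched genes without an octamer also include Tk1, Rrm2, Mcm2 and Pcna, which fell at both ages. Orc3, which was not called lower at either age, holds an octamer.
Cdc6: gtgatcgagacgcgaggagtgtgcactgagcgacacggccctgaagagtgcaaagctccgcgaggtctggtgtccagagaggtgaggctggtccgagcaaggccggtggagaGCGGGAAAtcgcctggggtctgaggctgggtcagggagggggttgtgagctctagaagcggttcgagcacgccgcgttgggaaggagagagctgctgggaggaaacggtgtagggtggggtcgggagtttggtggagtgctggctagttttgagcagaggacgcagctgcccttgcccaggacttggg
Clspn: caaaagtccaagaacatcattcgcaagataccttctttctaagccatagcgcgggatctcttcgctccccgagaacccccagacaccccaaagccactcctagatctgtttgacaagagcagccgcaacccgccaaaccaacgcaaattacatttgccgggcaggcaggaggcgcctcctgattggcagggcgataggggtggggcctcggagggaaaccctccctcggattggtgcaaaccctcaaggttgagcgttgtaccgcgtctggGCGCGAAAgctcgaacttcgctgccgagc
Mcm6: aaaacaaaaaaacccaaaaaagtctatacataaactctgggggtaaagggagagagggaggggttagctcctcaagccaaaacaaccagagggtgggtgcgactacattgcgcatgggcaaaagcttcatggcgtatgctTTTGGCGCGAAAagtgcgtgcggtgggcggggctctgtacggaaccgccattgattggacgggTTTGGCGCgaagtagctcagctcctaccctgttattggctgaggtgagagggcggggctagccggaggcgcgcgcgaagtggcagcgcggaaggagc
Orc2: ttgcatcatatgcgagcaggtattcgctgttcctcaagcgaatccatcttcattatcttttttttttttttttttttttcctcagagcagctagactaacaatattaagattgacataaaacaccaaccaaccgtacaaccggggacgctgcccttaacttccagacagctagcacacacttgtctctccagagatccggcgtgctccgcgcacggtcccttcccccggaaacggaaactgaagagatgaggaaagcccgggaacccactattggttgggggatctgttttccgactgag

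All 9 licensing genes fell in young cells (median log2 fold change -1.09) and in aged cells (-0.43). All 9 were higher in aged than in young LPS cultures, with a median of 0.58. Cdc6, the ATPase that brings the helicase to origins (GRCm38, as for all gene positions here, chromosome 11, 98907801 to 98923940), measured 41.1, 51.6, 43.8, 49.3 and 57.1 CPM in young untreated cultures 1 to 5, and 52.8, 44.4, 58.5, 37.5 and 55.5 CPM in aged untreated ones. Under LPS it measured 16.9, 15.3, 15.8, 17.0 and 23.1 CPM in young and 35.3, 35.8, 38.6, 32.8 and 44.1 CPM in aged cultures. Every aged LPS culture was above every young LPS culture, while aged LPS cultures still overlapped aged untreated ones. Cdc6 fell by 1.46 on the log2 scale in young cells (SE 0.129, adjusted p = 1.13e-09) and by 0.41 in aged cells (SE 0.121, adjusted p = 0.00614). Under LPS it was 1.08 higher in aged than in young cells (log2, SE 0.131, adjusted p = 2.56e-06). Its RefSeq promoter window, printed above, holds 1 octamer and lies inside the gene by the position given here.

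Geminin, encoded by Gmnn on chromosome 13 (24751845 to 24761923), binds Cdt1 and blocks licensing outside G1. It measured 62.3, 69.9, 58.1, 59.7 and 70.2 CPM in young untreated and 61.4, 63.5, 66.0, 55.2 and 69.8 CPM in aged untreated cultures. With LPS it measured 24.1, 17.8, 18.8, 19.5 and 22.9 CPM in young and 27.7, 31.7, 29.3, 30.1 and 34.8 CPM in aged cultures. LPS and untreated cultures did not overlap at either age, nor did young and aged cultures under LPS. The fall was 1.64 (SE 0.0874) in young and 1.04 (SE 0.0839) in aged cells on the log2 scale, with adjusted p of 1.90e-13 and 4.61e-10. Its partner Cdt1, the licensing factor that geminin inhibits, fell less, with log2 fold changes of -0.52 in young and -0.20 in aged cells.

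The helicase subunits Mcm2 to Mcm7 moved within a narrow range. In young cells their log2 fold changes ran from -0.81 (Mcm6) to -1.34 (Mcm7), and in aged cells from -0.33 (Mcm3) to -0.73 (Mcm7). Under LPS all 6 were higher in aged than in young cells, by 0.38 (Mcm6) to 0.68 (Mcm2). The exons of Mcm7 overlap those of Cops6 and Ap4m1 on the other strand by 1.45% and 7.25% of their length. Per kilobase of exon the 6 subunits differed in level, from 98.9 CPM for Mcm6 and 92.7 for Mcm3 to 38.3 for Mcm2 in young untreated cultures.

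Origin recognition was the role that did not fall as a whole. Of its 6 genes, 3 fell (Orc1, Orc5 and Orc6) and 2 rose (Orc2 and Orc4) with LPS in young cells, and 1 fell (Orc5) and the same 2 rose in aged cells. Orc3 had a log2 fold change of 0.07 in young cells (adjusted p = 0.271), which turned to -0.15 and was called when libraries were scaled by their totals alone. Orc2, a core subunit of the complex, lies on chromosome 1 (58462771 to 58505109). It measured 126, 123, 117, 135 and 135 CPM in young untreated and 146, 166, 165, 158 and 157 CPM in aged untreated cultures. With LPS it measured 191, 143, 155, 171 and 167 CPM in young and 178, 194, 197, 191 and 185 CPM in aged cultures. Young untreated cultures were the lowest 5 of the 20, and the other groups lay above them without overlap. The rise with LPS was 0.38 in young cells (log2, SE 0.0629, adjusted p = 1.53e-05) and 0.25 in aged cells (SE 0.0624, adjusted p = 0.00146), and the second was not called with library totals alone (0.09, adjusted p = 0.197). Aged exceeded young untreated cultures by 0.32 (SE 0.0626, adjusted p = 0.00188). Orc2 was the only 1 of the 3 genes called between untreated ages that kept its call when any 1 batch was left out. Its higher level in aged than in young cells under LPS (0.20, adjusted p = 0.0218) had adjusted p of 0.180, 0.114, 0.0551 and 0.0560 without batches 2, 3, 4 and 5. Exons of Orc2 overlap those of Nif3l1 on the other strand over 29.8% of their length, and Nif3l1 had means between 44.3 and 49.0 CPM in the 4 groups.

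Orc4, another subunit of the complex (chromosome 2, 48902824 to 48950277), measured 52.2, 49.99, 52.0, 48.7 and 54.7 CPM in young untreated and 54.8, 59.9, 59.5, 54.3 and 55.6 CPM in aged untreated cultures. With LPS it measured 64.3, 64.1, 64.1, 62.1 and 64.5 CPM in young and 60.4, 63.6, 68.4, 63.9 and 64.5 CPM in aged cultures. LPS cultures were above untreated ones of their age without overlap, and the ages overlapped within each treatment. The rise was 0.31 in young (log2, SE 0.0457, adjusted p = 3.26e-06) and 0.18 in aged cells (SE 0.0453, adjusted p = 0.00232), and neither was called with library totals alone (0.09 and 0.01). The untreated difference of 0.14 (adjusted p = 0.0455) lost its call without any 1 of batches 1 to 5, with adjusted p of 0.0641, 0.290, 0.133, 0.109 and 0.0584. Orc1, the ATPase subunit whose level follows the cell cycle, fell in young cells (-0.40, SE 0.0816) and was at 0.09 in aged cells (adjusted p = 0.361). Under LPS it was 0.60 higher in aged cells (SE 0.0816, adjusted p = 9.61e-06).

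**Figure D2:**
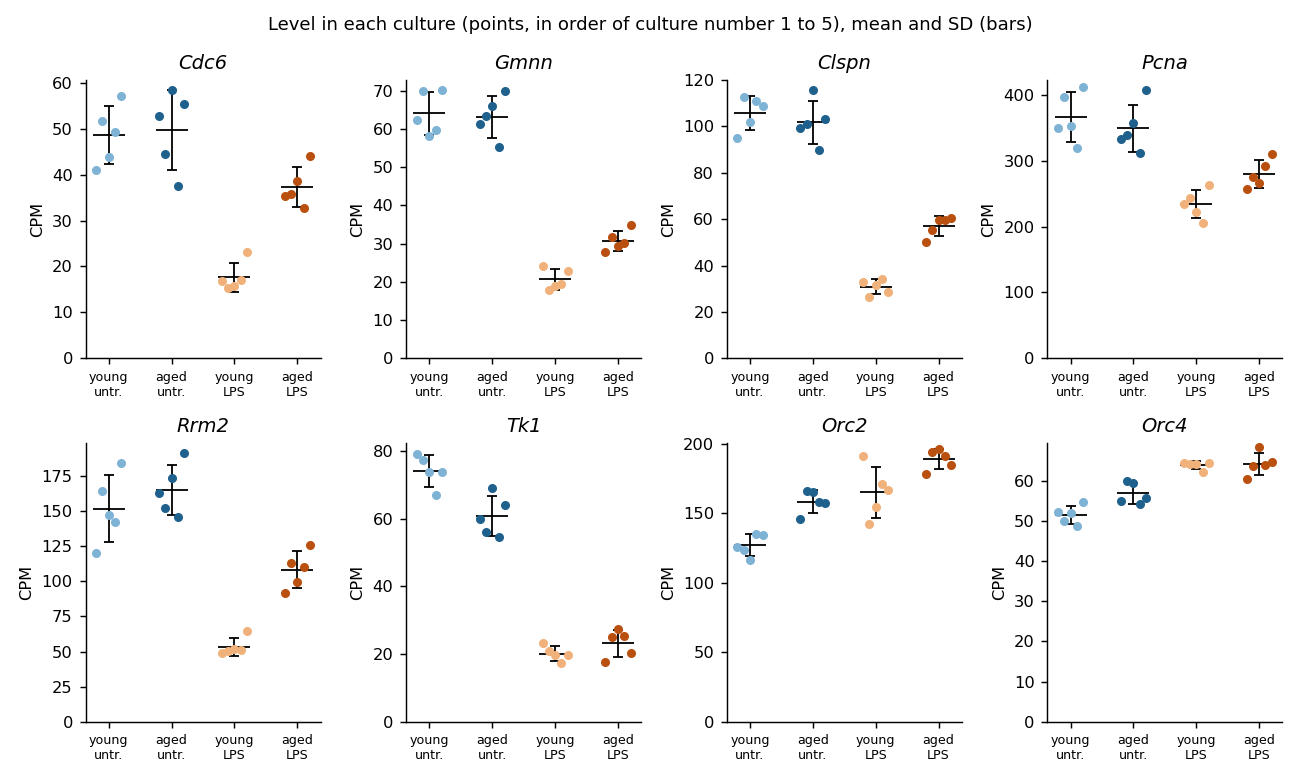
Levels in CPM (y axis, from 0) of the 8 genes given in every culture, in the 4 groups; points are cultures 1 to 5 and bars the mean with SD (n = 5). Cdc6, Gmnn, Clspn and Rrm2 fall with LPS and stay higher in aged cells, Tk1 falls at both ages, and Orc2 and Orc4 are lowest in young untreated cultures.

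Factors that activate the helicase and fire origins followed the licensing genes with more spread. In young cells 8 of 9 fell (median -0.86) and in aged cells 6 of 9 fell (median -0.44). Cdc45, which joins Mcm2 to Mcm7 and the GINS complex in the working helicase, fell by 1.25 in young (log2, SE 0.0873) and by 0.56 in aged cells (SE 0.0850). All 4 GINS genes fell in young cells, from -0.43 (Gins3) to -1.08 (Gins1), and 3 of the 4 fell in aged cells, with Gins3 at -0.04 (adjusted p = 0.692). Of the kinase that triggers firing, the catalytic subunit Cdc7 fell at both ages (-0.89 and -0.44) and its activator Dbf4 fell in young cells (-0.36) and was at -0.15 in aged cells (adjusted p = 0.147). Mcm10, a firing factor, was called in no comparison over all 20 libraries, with log2 fold changes of 0.01 and 0.07 under LPS. It measured 149 CPM in young LPS culture 1 and 93.0 to 100.3 CPM in the other young LPS cultures, and without that library it was called higher in aged than in young LPS cultures (0.27, adjusted p = 0.0114). Mcm8, a relative of the helicase subunits with a known role in recombination repair, fell at both ages, and its fall in aged cells (-0.32, adjusted p = 0.0167) had an adjusted p of 0.0523 without batch 4. Exons of Gins2 overlap those of Gse1 on the other strand over 67.3% of their length, and Gse1 had a mean of 157 CPM against 38.7 for Gins2.

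All 9 polymerase and primase genes fell at both ages, with medians of -0.77 in young and -0.46 in aged cells. The largest falls in young cells were those of Pole and Pole2, subunits of the polymerase of the leading strand, at -1.27 each (SE 0.0920 and 0.0754). In aged cells their log2 fold changes were -0.72 and -0.81. Pola2, a subunit of the polymerase that starts each new strand, fell least in young cells (-0.37, SE 0.0519), and in aged cells (-0.17) its LPS and untreated cultures overlapped. Among the delta polymerase subunits, Pold1, the catalytic one, had a log2 fold change of -1.06 in young cells, while Pold2 and Pold3 had -0.41 and -0.49. Under LPS 7 of the 9 were higher in aged cells, and Prim2 (0.17) and Pold3 (0.10) were not called. Both were called without young LPS culture 1 (0.26 and 0.18), so that all 9 were then higher.

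The clamp and its loader fell at both ages for all 6 genes, with medians of -0.87 and -0.51, and all 6 were higher in aged than in young LPS cultures by 0.26 to 0.33. Rfc2 and Rfc5 kept that call when any 1 batch was left out. Pcna, Rfc3 and Rfc4 lost it without batch 2 or batch 4, these and Rfc1 without batch 3, and Rfc3 without batch 5. Pcna encodes the clamp itself (chromosome 2, 132249162 to 132253314) and was the most abundant of the 54 per length, at 152 CPM per kilobase of exon in young untreated cultures. It measured 349, 396, 352, 318 and 412 CPM in young untreated and 333, 338, 357, 312 and 406 CPM in aged untreated cultures. Under LPS the levels were 234, 244, 222, 206 and 263 CPM in young and 257, 275, 266, 292 and 310.0 CPM in aged cultures. LPS cultures lay below untreated ones at each age, and the ages overlapped by 1 culture under LPS. The fall was 0.65 in young (log2, SE 0.0792, adjusted p = 2.23e-07) and 0.32 in aged cells (SE 0.0788, adjusted p = 0.00161). The difference between aged and young under LPS (0.26, adjusted p = 0.0159) had adjusted p of 0.0516, 0.0506 and 0.0683 without batches 2, 3 and 4. Reads can be split between a gene and a near-identical copy, and the copy Pcna-ps2 had a mean of 2.90 CPM. Rfc1, the large subunit of the loader, fell most in this role in young cells (-1.08, SE 0.0647) and Rfc5 least (-0.55).

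The single-strand binding proteins and the enzymes that finish Okazaki fragments, the short pieces of the lagging strand, all fell at both ages (5 of 5, medians -0.77 and -0.45). Rpa2, the middle subunit of the single-strand binding complex, fell by 1.12 in young (log2, SE 0.0723) and by 0.56 in aged cells. The log2 fold changes of the flap nuclease gene Fen1 were -0.77 and -0.33, and those of Lig1, the ligase that seals the fragments, -0.94 and -0.45. Under LPS 4 of the 5 were higher in aged cells, by 0.39 (Lig1) to 0.49 (Rpa2), and Rpa3, the smallest subunit, was not called (0.23, adjusted p = 0.132).

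Genes that supply deoxynucleotides included the gene that fell most. All 5 fell at both ages, with medians of -0.995 and -0.573. Tk1, cytosolic thymidine kinase, which salvages thymidine (chromosome 11, 117815526 to 117826092), measured 79.2, 77.4, 73.7, 66.9 and 73.7 CPM in young untreated and 60.0, 56.0, 69.0, 54.6 and 64.1 CPM in aged untreated cultures. LPS cultures measured 23.2, 20.8, 19.6, 17.3 and 19.7 CPM in young and 17.6, 25.1, 27.3, 25.2 and 20.3 CPM in aged cultures. LPS cultures were below untreated ones at both ages, and the ages overlapped under LPS and, by 1 culture, without it. Tk1 fell by 1.89 in young cells (log2, SE 0.0998, adjusted p = 1.60e-13) and by 1.39 in aged cells (SE 0.0979, adjusted p = 4.26e-11), the largest fall of the 54 at each age. Its level in untreated cells was lower in aged cultures (-0.29, adjusted p = 0.0428). That call was lost without batches 1, 2, 4 and 5 (adjusted p of 0.0657, 0.247, 0.0845 and 0.0903) and with library totals alone (0.0507). Between the ages under LPS Tk1 was not called (0.20, adjusted p = 0.156), and without batch 1 it was higher in aged cells (0.34, adjusted p = 0.0147).

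Rrm2, the small subunit of ribonucleotide reductase, which makes deoxynucleotides from ribonucleotides, lies on chromosome 12 (24708241 to 24714146). It measured 121, 164, 147, 142 and 184 CPM in young untreated and 163, 152, 174, 146 and 191 CPM in aged untreated cultures. In LPS cultures it stood at 49.2, 50.4, 51.8, 51.4 and 64.9 CPM in young and 91.9, 113, 99.3, 110.3 and 126 CPM in aged cultures. Young LPS cultures were below all others. Aged LPS cultures were below all aged untreated ones, and their highest (126 CPM) was above the lowest young untreated culture (121 CPM). Rrm2 fell by 1.501 in young (log2, SE 0.108, adjusted p = 3.31e-11) and 0.61 in aged cells (SE 0.104, adjusted p = 3.05e-05), and under LPS it was 1.01 higher in aged cells (SE 0.108, adjusted p = 6.09e-07). Rrm1, its large subunit, which does not follow the cell cycle as closely, had log2 fold changes of -0.69 and -0.33. Dut, which removes dUTP, had log2 fold changes of -0.995 and -0.573, and Tyms, thymidylate synthase, of -0.51 and -0.27.

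Chromatin assembly and fork protection genes also fell at both ages (5 of 5, medians -1.11 and -0.48). Clspn encodes claspin, which links the moving fork to the checkpoint kinase Chk1 (chromosome 4, 126556935 to 126593903). It measured 95.2, 113, 102, 111 and 109 CPM in young untreated and 99.1, 101, 116, 89.9 and 103 CPM in aged untreated cultures. With LPS it measured 33.0, 26.6, 31.7, 34.4 and 28.7 CPM in young and 50.4, 55.4, 59.7, 59.8 and 60.5 CPM in aged cultures. The LPS cultures of both ages were apart from each other and from all untreated cultures. The fall was 1.78 in young (log2, SE 0.0771, adjusted p = 5.24e-15) and 0.83 in aged cells (SE 0.0736, adjusted p = 2.11e-09). Chaf1a and Chaf1b, subunits of the chaperone that places new histones behind the fork, had log2 fold changes of -1.14 and -1.11 in young and of -0.49 and -0.42 in aged cells. The exons of Chaf1a overlap those of Ubxn6 on the other strand over 52.5% of their length. Under LPS both were 0.63 higher in aged cells, and Timeless, which travels with the fork, was not called (0.17, adjusted p = 0.313). Timeless measured 69.1 CPM in young LPS culture 1 and 37.3 to 50.4 CPM in the others of that group, and it was called without that library (0.33, adjusted p = 0.0102).

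The responses of the 2 ages were then set against each other gene by gene, through the interaction term, which is the log2 LPS response of aged minus that of young cells. By this test 32 of the 54 genes had a higher log2 LPS response in aged than in young cells and none had a lower one, against 4.12% and 2.27% of all tested genes. For the count of 0, 1 gene (Orc4) was lower at an unadjusted p below 0.05, and DESeq2 called none. The median over the 54 was 0.40, and over all tested genes 0.02. All 49 genes with a log2 fold change below 0 at both ages were closer to 0 in aged cells, with a median ratio of 0.496 of the aged to the young value. Responses were also smaller in aged cells over all tested genes. Their quartiles were -0.38 and 0.32 in young cells and -0.27 and 0.25 in aged cells. The share of all tested genes that lay closer to 0 in aged cells, and their ratio, were not computed. Across the 54 genes, which share their libraries and are not independent, the responses of the 2 ages had Pearson's r of 0.906 and Spearman's rho of 0.875. The count of 32 depended on single batches: it was 37 without batch 1, 14 without batch 2, 23 without batch 3, 19 without batch 4 and 21 without batch 5. The 14 genes called each time were Cdc6, Mcm2, Mcm3, Mcm4, Mcm5, Mcm7, Cdc45, Pold1, Rpa1, Rpa2, Rrm2, Chaf1a, Chaf1b and Clspn, and 18 lost their call in at least 1 fit. Without young LPS culture 1 the count was 35, with Orc6 (0.41), Gins1 (0.42), Mcm8 (0.57) and Prim2 (0.37) gained and Cdc7 (0.43, adjusted p = 0.0724) lost.

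**Figure D3:**
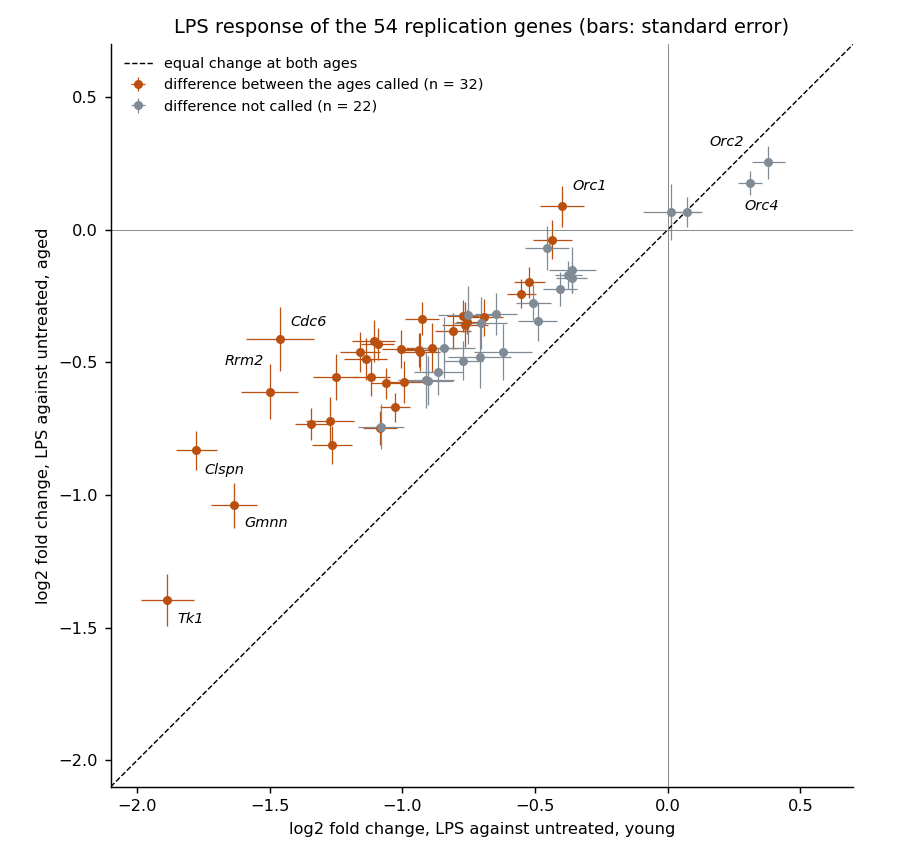
Log2 fold change of LPS against untreated in young cells (x axis) and in aged cells (y axis) for the 54 genes, with standard errors; orange marks the 32 genes whose responses differed between the ages by the interaction test. Genes that fell lie above the dashed line of equal change, and Orc2 and Orc4 lie just below it with TMM scaling.

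By role, the interaction was called for all 9 licensing genes and for 1 of 6 origin recognition genes (Orc1). It was called for 3 of 9 activation and firing genes, 5 of 9 polymerase and primase genes, 3 of 6 clamp genes, 4 of 5 single-strand binding and Okazaki genes, 4 of 5 deoxynucleotide genes and 3 of 5 chromatin assembly and fork genes. The largest were Cdc6 at 1.05 (95% interval 0.68 to 1.41, adjusted p = 0.00093), Clspn at 0.95 (0.73 to 1.17, adjusted p = 4.83e-05) and Rrm2 at 0.89 (0.58 to 1.20, adjusted p = 0.000887). Gmnn reached 0.60 (adjusted p = 0.00389), which became 0.0795 without batch 2. For Tk1 the difference was 0.49 (adjusted p = 0.0346), and its adjusted p was 0.255, 0.0868, 0.147 and 0.0798 without batches 2, 3, 4 and 5. Pcna was not called (0.33, 95% interval 0.10 to 0.56, adjusted p = 0.0870) and was called when batch entered the fit as a block (adjusted p = 0.00661). For Orc2 and Orc4 the values were -0.12 (95% interval -0.31 to 0.06) and -0.13, neither called.

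**Figure D4:**
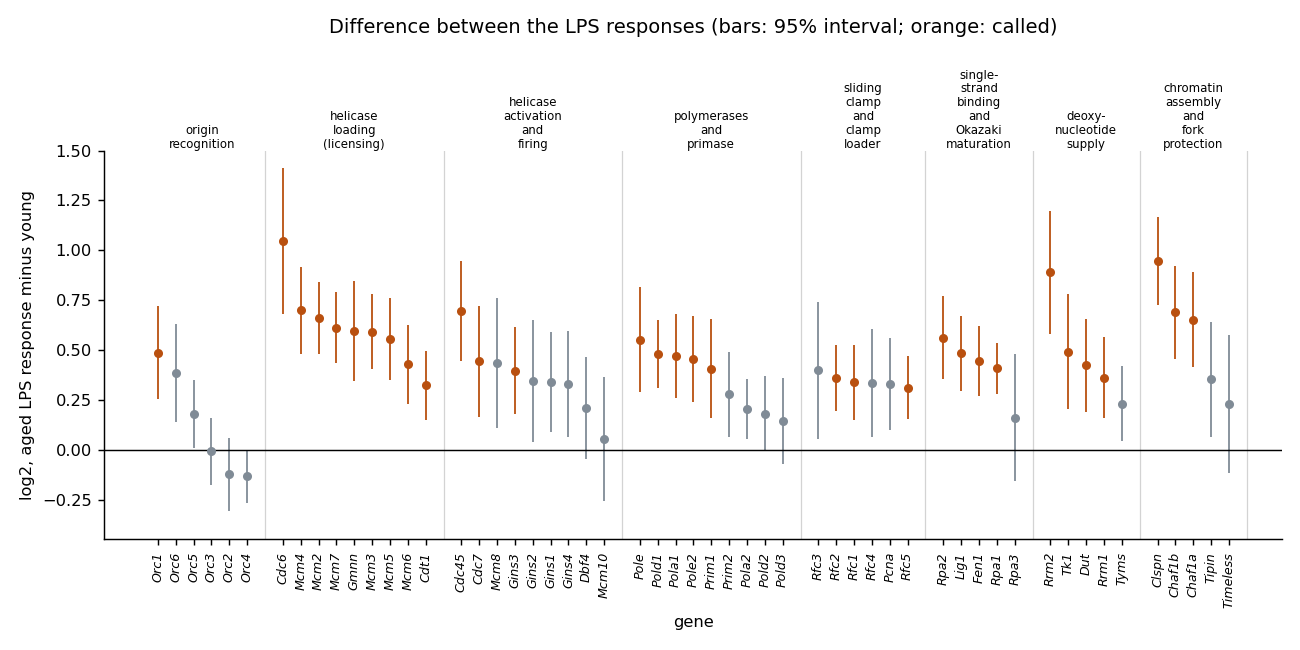
Difference of the log2 LPS responses, aged minus young (y axis), for each of the 54 genes grouped by role (x axis), with 95% intervals; orange points were called at an adjusted p below 0.05 and grey points were not. Cdc6, Clspn and Rrm2 stand highest, and Orc3, Orc2 and Orc4 are the genes below 0.

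The lists were also compared batch by batch, as means of log2 CPM over each library. For the 54 genes these means were 6.39, 6.52, 6.46, 6.47 and 6.58 in young untreated and 6.52, 6.45, 6.51, 6.41 and 6.57 in aged untreated cultures. With LPS they were 5.81, 5.59, 5.58, 5.61 and 5.70 in young and 5.95, 6.11, 6.08, 6.12 and 6.10 in aged cultures. LPS cultures were below the untreated culture of their age in every batch, and aged LPS cultures were above young LPS ones in every batch, while the untreated ages crossed. The aged minus young difference under LPS was 0.14 in batch 1 and 0.52, 0.50, 0.51 and 0.40 in batches 2 to 5. The difference of the LPS responses was 0.01 in batch 1 and 0.41 to 0.58 in the others.

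Genes of G2 and mitosis had smaller values in mostly the same direction, and the lists were not tested against each other. Of 23 such genes 13 fell in young cells (median -0.30) and 10 in aged cells (median -0.18), led in young cells by Cenpf, a kinetochore protein, at -1.07 and the mitotic kinase Aurkb at -0.89. For their responses the interaction was called for 0 of 23 (2 at an unadjusted p below 0.05, 0 by DESeq2), with a median of 0.13 and all 23 values above 0. Between the ages under LPS 6 were called higher in aged cells (8 with batch as a block), and 22 of the 23 log2 fold changes were above 0. These counts include young LPS culture 1. Their mean log2 CPM in young LPS culture 1 was 7.03, against 6.41 to 6.68 in the other young LPS cultures and 6.92 to 7.16 in young untreated ones. In batch 1 the aged minus young difference under LPS for this list was -0.33, where in the other batches it was 0.19 to 0.55. In the same batch, aged LPS culture 1 had a mean of 5.95 over the 54 replication genes, against 6.08 to 6.12 in the other aged LPS cultures. The median interaction of the 54 was 0.43 without young LPS culture 1 and 0.51 without all of batch 1. The part of either library in the smaller difference of the replication genes in batch 1 was not tested.

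**Figure D5:**
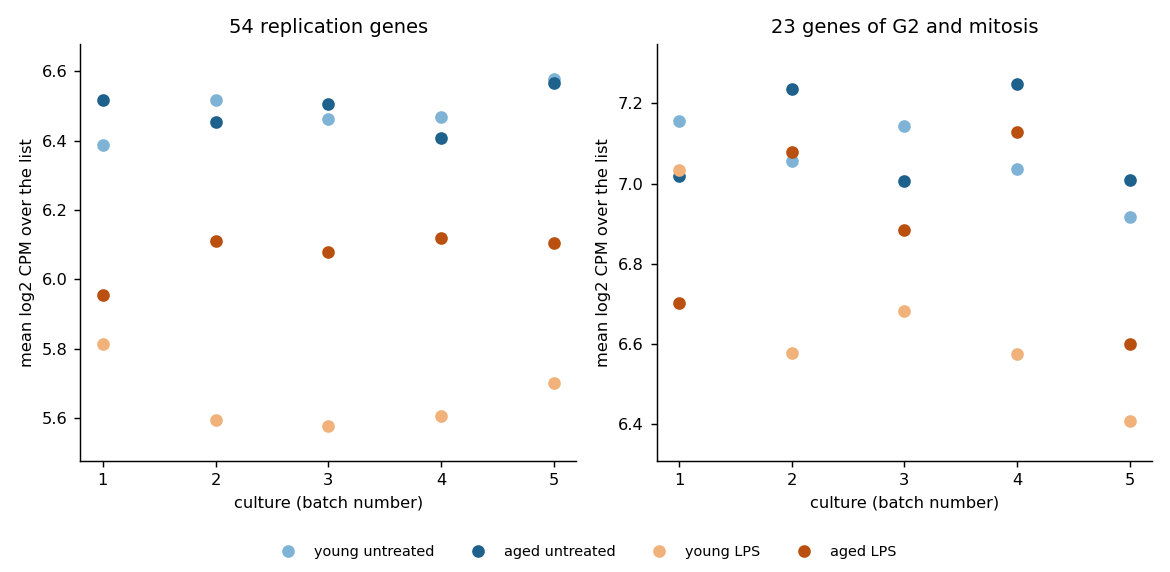
Mean log2 CPM over the 54 replication genes (left) and over 23 genes of G2 and mitosis (right) in each culture, by batch number (x axis) and group (colour). On the left young LPS cultures are lowest, aged LPS cultures next and untreated cultures highest in each batch, with the LPS cultures of batch 1 only 0.14 apart; on the right the groups mix, and young LPS culture 1 is at the level of untreated cultures.

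Genes around the replication machinery followed it in part. Of 22 other replication factors tested, 17 fell and 3 rose in young cells, and 15 fell and 4 rose in aged cells. Dscc1, of an alternative clamp loader, and Wdhd1, which ties polymerase to helicase, fell most in young cells (-1.65 and -1.61). Mcm9, a partner of Mcm8, rose most (1.51), followed by the topoisomerase gene Top1 (0.45). The interaction was called higher for 10 of the 22 and lower for none (1 at an unadjusted p below 0.05, 0 by DESeq2), with Wdhd1 at 1.00 and the nuclease Dna2 at 0.87 the largest. Mcm9 shares 1748 exon bases, 19.2% of its length, with Asf1a on the other strand.

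Of 9 further deoxynucleotide genes 6 fell and 3 rose in young cells, and 4 fell and 3 rose in aged cells. With batch as a block 6 fell and 3 rose in aged cells, as in young cells. Among those that fell in young cells was mitochondrial Tk2 (-0.53). The genes that rose most were Samhd1, which breaks down deoxynucleotides (1.36), and Dck, which salvages deoxycytidine (0.90). Samhd1 measured 237 ± 7.48 CPM in young untreated and 609 ± 75.6 CPM in young LPS cultures (SD, n = 5), and its rise was smaller in aged cells (interaction -0.66). The interaction was called higher for 3 of the 9, among them Dtymk (0.29), which phosphorylates dTMP. All 7 genes for histone supply and the copying of chromatin marks fell at both ages, led in young cells by Uhrf1 (-1.68) and Dnmt1 (-1.20), which together carry DNA methylation to the new strand. All 7 were higher in aged LPS cultures, and for 5 of them the interaction was called, with Uhrf1 at 1.02 and Dnmt1 at 0.65.

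Among 24 tested regulators of the passage from G1 to S phase, 15 fell and 3 rose in young cells, and 13 fell and 2 rose in aged cells. The largest falls in young cells were those of Rbl2, an Rb-related repressor of E2F targets (-2.45), and Cdkn2c, an inhibitor of Cdk4 and Cdk6 (-2.20). The largest rises were those of Cdkn1a, which encodes the kinase inhibitor p21 (2.66), and Cdk6 (0.87). Cdkn1a measured 26.2 ± 1.92 CPM in young untreated, 19.7 ± 1.04 in aged untreated, 166 ± 45.5 in young LPS and 69.8 ± 12.3 in aged LPS cultures (SD, n = 5). It was the only gene of this list whose interaction was called lower (-0.83). The interaction was called higher for 9, with E2f2, an activating E2F factor, at 1.14 and Rbl2 at 0.96. Of 8 checkpoint genes 3 fell and 3 rose at both ages, which is near the shares of all tested genes. Those were 33.5% lower and 31.2% higher in young cells, and 26.9% and 27.5% in aged cells. Among the 8 were Chek1, the kinase that claspin serves (-1.001 in young cells), and Wee1, which holds back mitosis (-0.77). Rad9a of the checkpoint clamp (0.24) and Atrip (2.16) rose in young cells. Atrip shares 1147 exon bases with Trex1 on the same strand, and Trex1 had means of 10.1 and 107 CPM in young untreated and young LPS cultures, so reads of the pair may be split between them.

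Known inflammatory genes were read in the same libraries. All 9 tested LPS-induced genes rose at both ages, and 8 of the 9 were lower in aged than in young LPS cultures. Of the 9, 4 were already lower in aged untreated cultures. The interaction was called higher for 1 of them (Acod1, which makes itaconate) and lower for 0 (1 at an unadjusted p below 0.05, 0 by DESeq2). In aged untreated cultures Il6 was at 0 in all 5, and Nos2, Ccl5 and Il1b had means of 0.01, 0.24 and 0.28 CPM. Fold changes over levels this near the detection floor depend on the floor. The interaction therefore cannot decide whether the response was weaker in aged cells for these genes, nor for the list as a whole. Nfkbia (48.4 CPM in young and 41.7 CPM in aged untreated cultures), Ptgs2 (8.91 and 6.86 CPM) and Tnf were above the floor. For these 3 genes the interaction was not called. Tnf, which encodes a cytokine of the early response, had means of 24.5 ± 4.44 and 822 ± 201 CPM in young untreated and young LPS cultures, and of 16.6 ± 3.28 and 447 ± 72.6 CPM in the aged ones (SD, n = 5). Il1b measured 351 ± 219.7 CPM in young LPS and 73.8 ± 68.5 CPM in aged LPS cultures.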

How the data were processed

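RNA of 20 BV-2 cultures, 5 in each of 4 groups, was sequenced after a poly(A) stranded library preparation. The authors deposited 1 table of raw read counts per gene. The submitters' processing notes name FastQC 0.11.8, STAR 2.6.1d, featureCounts 1.5.1 and DESeq2; the strand setting of the counting is not given in the sources used here, so reads from overlapping genes may be assigned to either. All columns of the table were matched to samples by name.

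Counts were tested with edgeR 4.0.16 (quasi-likelihood test, TMM scaling, filterByExpr) in R 4.3.3, with group as the only term over all 20 libraries and Benjamini-Hochberg adjustment over 12799 genes. The difference of the LPS responses was an interaction contrast. Separate cultures are the replicates, and p-values measure the spread between them. How many runs of long-term cultivation gave the aged cultures is not stated, so the spread between such runs may not be covered. Library totals ran from 11371508 to 16829292, and counting intervals are not given because replicate spread is used instead. Gene positions and union exon lengths are from GENCODE M21 (GRCm38), and promoters from RefSeq (GRCm38.p6). Of the further replication factors 1 symbol, Chtf8, was carried by 2 identifiers and was not tested.

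The members and all lists were chosen with earlier results of these data known. Values in every culture are given for members with the 2 largest called changes in each direction in each comparison, at a mean of at least 10 CPM, and for the most abundant member per length; the other lists are given by counts and their 2 largest called changes in each direction. The values of 1 gene of the further deoxynucleotide list are not reported here. Batch numbers pair the cultures per the labels, and deviations from group means correlated by 0.146 on average between cultures of the same number (0.0425 to 0.276 by pair of groups). Alternatives were DESeq2 1.42.0, batch as a block, other scalings and filters, a stricter threshold, only the groups compared, and leaving out 1 batch at a time.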

Additional observations from a re-analysis of the deposited data

Results flagged for a closer look

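Some cultures were flagged because their gap to the other 4 of their group was large relative to the range of that group. Among young LPS cultures, culture 5 was highest for Cdc6 (23.1 CPM) and for Rrm2 (64.9 CPM). Culture 4 was lowest for Orc4 (62.1 CPM), close in level to the others of that group (64.1 to 64.5 CPM). Among aged LPS cultures, culture 1 had the lowest mean log2 CPM over the 54 genes (5.95). These 4 came from 44 groups examined with Dixon's test at its 95% critical value, which by chance marks about 1 in 20.

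The LPS response differed between the ages, by the interaction test of edgeR, for 32 genes, all with a higher value in aged cells. Beyond Cdc6 (1.05), Clspn (0.95) and Rrm2 (0.89), the log2 differences of the licensing genes were 0.70 for Mcm4, 0.66 for Mcm2, 0.61 for Mcm7, 0.60 for Gmnn, 0.59 for Mcm3, 0.56 for Mcm5, 0.43 for Mcm6 and 0.32 for Cdt1. In origin recognition Orc1 had 0.49, and among activation and firing genes Cdc45 had 0.69, Cdc7 0.44 and Gins3 0.40. The polymerase and primase genes had 0.55 for Pole, 0.48 for Pold1, 0.47 for Pola1, 0.45 for Pole2 and 0.41 for Prim1. The clamp loader genes had 0.36 for Rfc2, 0.34 for Rfc1 and 0.31 for Rfc5. Rpa2 had 0.56, Lig1 0.48, Fen1 0.45 and Rpa1 0.41. Among deoxynucleotide genes Tk1 had 0.49, Dut 0.42 and Rrm1 0.36, and in chromatin assembly Chaf1b had 0.69 and Chaf1a 0.65. Of these 32, 14 kept their call when any 1 batch was left out.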

How the results depend on the processing

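The falls with LPS were stable: leaving out 1 batch at a time gave 50 members lower in young and 45 to 46 in aged cells, with medians from -0.92 to -0.82 and from -0.46 to -0.40. The differences between ages were less so. Members higher in aged LPS cultures numbered 35 to 50 (median 0.38 to 0.47), and those with a called interaction 14 to 37 (median 0.36 to 0.51), lowest without batch 2; 10 of the 44 and 18 of the 32 lost their call in at least 1 of these fits. Between untreated ages 1 was higher and 0 to 1 lower. With an adjusted p below 0.01 there were 1 higher and 0 lower between untreated ages and 21 called interactions. With no filter on low counts 1 was higher between untreated ages. Scaling by library totals alone moved the median of all genes by -0.22 in young and -0.16 in aged LPS comparisons, and the members' medians to -1.07 and -0.60; 1 member then rose in young and 0 in aged cells, 0 were lower between untreated ages, and Orc3 turned to -0.15 in young cells. All genes called higher and lower were then 2407 and 6401 in young (3988 and 4282 with TMM) and 2172 and 5476 in aged cells (3523 and 3445 with TMM). Under LPS aged cells had 3167 higher and 1353 lower (1794 and 1923 with TMM), and the interaction 881 and 203 (527 and 291 with TMM). The cause was not tested for any of these. With batch as a replicate block 45 members were higher in aged LPS cultures and 34 interactions were called; the block ended no member's call and moved no count of members by 1.5 times, while all genes called higher between untreated ages went from 475 to 768. DESeq2 gave 43 and 33. Leaving out young LPS culture 1, chosen after seeing the data, gave 48 and 35. Depth limits the low markers, for which 3 counts are the floor.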
